A study of Rattus norvegicus with 63 samples.

Results

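The ERK cascade was followed through its kinase MAP2K1 (MEK1), the ERK kinase MAPK3 (ERK1) and the ERK substrate RPS6KA1 (RSK1) in rat liver. All analytes whose gene symbol is MAP2K1, MAPK3 or RPS6KA1, with or without a modified residue, were taken, which gave 7 of the 158 analytes measured: the total proteins MAP2K1, MAPK3 and RPS6KA1 and the phosphorylated forms MAP2K1_P-S217/S221, MAPK3_P-T202/Y204, RPS6KA1_P-S380 and RPS6KA1_P-T573. Residue numbers are those in the deposited names. The cascade was chosen on earlier results of these same data, namely the rise of total MAP2K1 in 2 compounds and the fall of MAPK3_P-T202/Y204 in 6 compounds. The differences of these 2 analytes from their controls are therefore given as a description, without a test, while the other 5 analytes were tested.

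Livers of 63 male Wistar Hanover rats, 8 to 10 weeks old when assigned to dose groups, were measured on reverse-phase protein arrays, on which spots of tissue lysate are probed with an antibody against a protein or a modified residue. The values are relative fluorescence intensities (RFI), which can be compared between animals for the same antibody but not between antibodies. The study asked whether short dosing tells apart compounds that are non-genotoxic carcinogens (NGC), genotoxic carcinogens (GC) or non-carcinogens (NC). Each of 15 compounds was given to 3 animals by daily gavage in 5 ml/kg, and the treated animals had been picked from larger dose groups because their livers showed some histopathological change.

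The NGC in methylcellulose were acetamide (AA, 3000 mg/kg/d, 14 days), dehydroepiandrosterone (DHEA, 600 mg/kg/d, 14 days), methylcarbamate (Mcarb, 400 mg/kg/d, 14 days), methapyrilene (MPy, 60 mg/kg/d, 7 days), diethylstilbestrol (DES, 10 mg/kg/d, 3 days), ethionine (ETH, 200 mg/kg/d, 14 days), piperonylbutoxide (PBO, 1200 mg/kg/d, 3 days) and phenobarbital (PB, 14 days, no dose in the labels). The GC were C.I. Direct Black (CIDB, 146 mg/kg/d) and dimethylnitrosamine (DMN, 4 mg/kg/d), both given in corn oil for 7 days. The NC were cefuroxime (CFX, 250 mg/kg/d) and nifedipine (Nif, 3 mg/kg/d), both given in methylcellulose for 14 days. Cyproterone acetate (CPA, 100 mg/kg/d in corn oil, 14 days), thioacetamide (TAA, 19.2 mg/kg/d in methylcellulose, 7 days) and Wy-14643 (Wy, 60 mg/kg/d in methylcellulose, 3 days) had an undefined class. The 18 control animals formed 6 sets of 3: methylcellulose set 1 for AA, DHEA, Mcarb, MPy, TAA and Wy, set 2 for CFX and Nif, set 5 for DES, ETH and PBO and set 6 for PB, and corn oil set 3 for CIDB and DMN and set 4 for CPA. By their labels all methylcellulose sets were dosed for 14 days, although the study's methods describe time-matched controls. If the labels hold, the sets used for MPy, TAA, Wy, DES and PBO were not matched in time. Compounds with the same set share its animals.

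In this cascade a growth factor receptor activates RAS, a kinase downstream of RAS phosphorylates MAP2K1 on serines of its activation loop, and MAP2K1 in turn phosphorylates MAPK3 on a threonine and a tyrosine. Active ERK phosphorylates many proteins, among them RPS6KA1, whose T573 lies in the activation loop of the C-terminal kinase domain and is an ERK site, and whose S380 is then phosphorylated by that C-terminal domain. In liver the cascade carries growth factor signals in hepatocytes and is active during regeneration.

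All 7 analytes were above 0 in every animal. The hepatocyte factor HNF4A was above 0 in all 63 animals as well (RFI 1.07 to 2.93). It was among 12 measured analytes of a list of hepatocyte markers, 4 of which were at or below 0 in some animal. Of the other cell types whose markers were looked for (mesenchymal, leukocyte, bile duct and endothelial) no marker was measured. In whole liver, fewer cells with a protein and less protein per cell cannot be told apart. Median RFI over all analytes ran from 0.425 in replicate 3 of corn oil set 4 to 0.882 in replicate 1 of methylcellulose set 6, so these 2 control animals were the dimmest and the brightest of all, and results that rest on them are given without them. Values after each animal was centred on its own median log2 RFI are called centred below. The animals' scale moved with several members: the correlation of an animal's deviation from its group mean with that of its median was 0.83 for MAP2K1_P-S217/S221, 0.65 for RPS6KA1_P-S380 and 0.57 for MAPK3_P-T202/Y204, against 0.26 for MAP2K1 (63 animals).

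The deposited series matrix, a log2 ratio table of the same animals, allowed a check of the names. Over the 45 treated animals, with animal medians removed from both sources, the RFI of 5 members followed the matrix values of their own name better than those of any other name, with Spearman's rho of 0.88 for MAPK3, 0.89 for MAP2K1_P-S217/S221, 0.92 for MAPK3_P-T202/Y204, 0.94 for RPS6KA1 and 0.96 for RPS6KA1_P-T573. Spearman's correlation was 0.19 for MAP2K1 and 0.17 for RPS6KA1_P-S380, against a median of 0.87 over 155 analytes, of which 8 were under 0.2. What the RFI named MAP2K1 and RPS6KA1_P-S380 measure is therefore given only as the deposited names state it.

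Total MAP2K1 stood apart in DHEA and in Wy, both of which are peroxisome proliferators in rat liver. RFI of MAP2K1 was 355, 119 and 156 in the 3 DHEA animals. It was 189.7, 162 and 317 in the 3 Wy animals. The 3 controls of methylcellulose set 1, which both compounds share, had 31.7, 100.0 and 31.2. All 6 treated animals lay above all 3 controls, and the highest control, replicate 5, was also the highest of the 18 control animals. The log2 difference from set 1 was 2.02 ± 0.37 (SE, n = 3 against 3) for DHEA, a 4.05-fold higher level, and 2.21 ± 0.37 for Wy, a 4.62-fold higher level. These calls are part of the choice of the cascade and are described only. 6.33% of the 158 analytes were called at an adjusted p below 0.05 in DHEA and 8.86% in Wy.

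Mean MAP2K1 RFI of the other 13 compounds lay between 34.7 ± 5.96 (SD, n = 3) in Mcarb and 80.1 ± 25.7 in CIDB, and that of the 6 control sets between 41.5 ± 22.5 in corn oil set 4 and 67.7 ± 22.1 in corn oil set 3. In the order of the 21 group means, the only neighbours whose animals did not overlap were CIDB and DHEA, with means of 80.1 and 210.0, and DHEA and Wy overlapped. The log2 differences of the other 13 compounds ran from -0.45 in DES to 0.25 in CIDB, and CFX was the only one among them whose 3 animals lay entirely below its controls (-0.34 ± 0.37). The rise was of like size in the series matrix, with 1.78 for DHEA and 2.09 for Wy, although the matrix row of that name followed the RFI poorly from animal to animal. Without DHEA replicate 1 the difference of DHEA was 1.56, and without control replicate 5 it was 2.57.

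**Figure D1:**
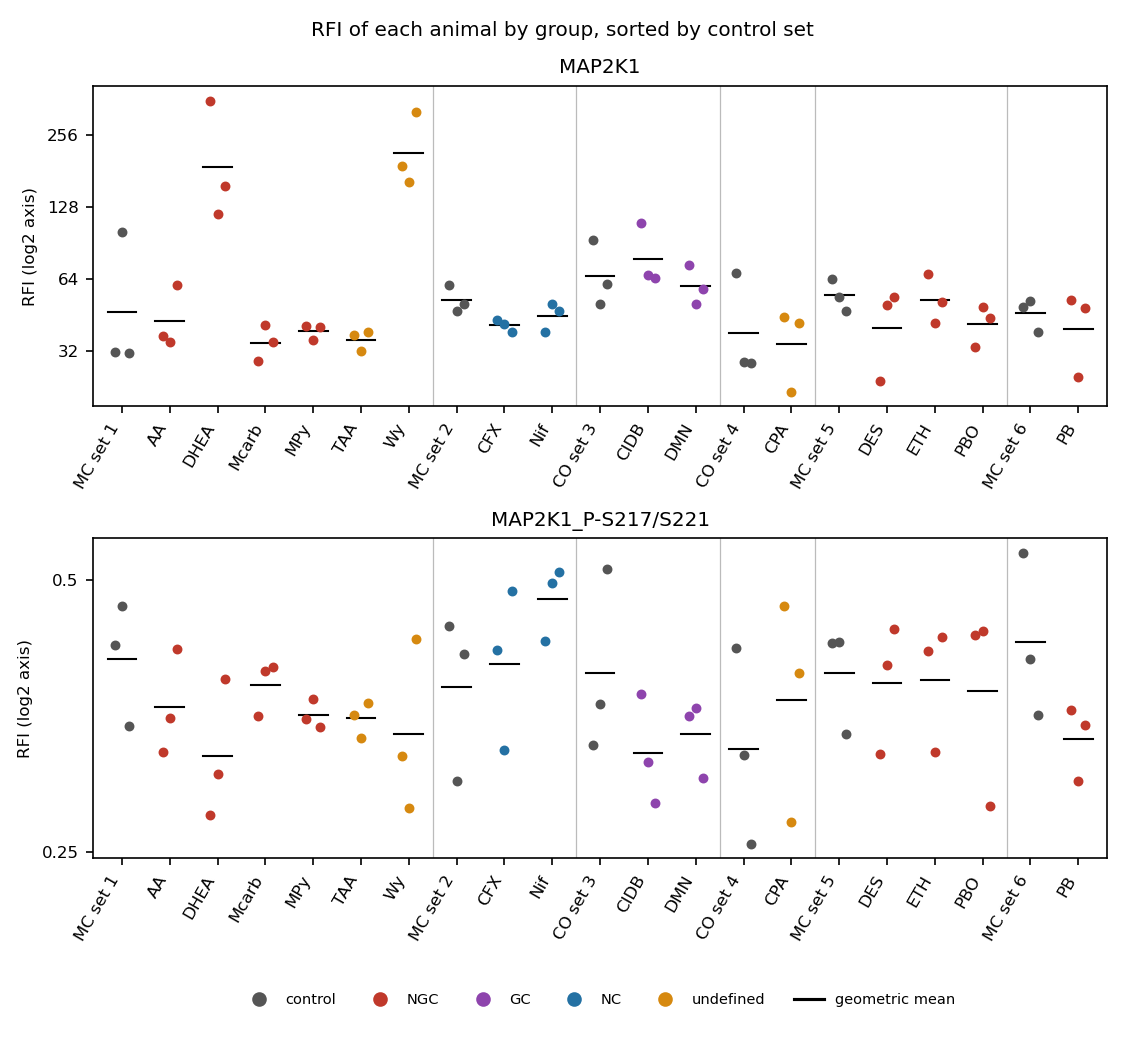
RFI of total MAP2K1 (top) and of MAP2K1_P-S217/S221 (bottom) in each of the 63 animals on a log2 axis, with groups on the horizontal axis sorted by control set (MC methylcellulose, CO corn oil); points are animals coloured by class and bars are geometric means. The DHEA and Wy animals, from 119 to 355, stand above all others in the top panel, while no group stands apart in the bottom panel.

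The phosphorylated form MAP2K1_P-S217/S221, the active state of the kinase, passed the test in no compound, DHEA and Wy included. RFI of MAP2K1_P-S217/S221 was 0.275, 0.305 and 0.388 in DHEA and 0.320, 0.279 and 0.430 in Wy, against 0.424, 0.469 and 0.344 in set 1, and the animals of both groups overlapped the controls. The log2 difference of MAP2K1_P-S217/S221 was -0.36 ± 0.21 in DHEA (limma adjusted p = 0.39) and -0.28 ± 0.21 in Wy (limma adjusted p = 0.62). In all 15 compounds its differences ran from -0.36 to 0.32, the latter in Nif, and none passed the test or had an unadjusted p below 0.05. Over all animals the phosphorylated form spanned a 2.10-fold range, from 0.255 in replicate 3 of corn oil set 4 to 0.537 in replicate 1 of methylcellulose set 6, the same animals as the extremes of the overall median.

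Total MAPK3 was lower in no compound by the test. The largest differences of MAPK3 were -0.67 ± 0.27 in CPA (limma adjusted p = 0.15) and -0.67 ± 0.27 in PB (limma adjusted p = 0.096), both of them before centring. In CPA the 3 animals had MAPK3 RFI of 0.791, 1.02 and 0.881, and corn oil set 4 had 0.860, 0.984 and 3.38. The control at 3.38, replicate 3, was the highest MAPK3 value in the series, and without it the difference of CPA was -0.04. Centred, the CPA difference was -0.89 (limma adjusted p = 0.017), and centred without this animal, whose median was the lowest of all, it was -0.19 (limma adjusted p = 0.77), an alternative added after the data were seen. In PB the 3 animals had 0.786, 0.896 and 0.989, below all 3 controls of set 6 at 2.09, 1.08 and 1.24. Without replicate 3 of corn oil set 4, which enters only the spread of this comparison, the PB difference of -0.67 passed the test (limma adjusted p = 0.027). Without replicate 1 of set 6, the brightest animal, the PB difference was -0.38, and after centring it was -0.26 (limma adjusted p = 0.59). The 3 animals of DHEA, at 0.663, 0.909 and 0.944, and of Wy, at 0.839, 0.857 and 1.09, also lay below set 1, at 1.09, 1.26 and 1.10, although the highest Wy animal and the lowest control were equal to 3 digits. Their differences were -0.47 and -0.31 (limma adjusted p = 0.39 and 0.69).

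MAPK3_P-T202/Y204, the doubly phosphorylated active form of ERK1, was the member with the widest pattern over compounds. Its level was lowest in DHEA, Wy and CIDB and highest in Nif and CFX. In DHEA the 3 animals had MAPK3_P-T202/Y204 RFI of 1.32, 1.44 and 1.48. In Wy they had 1.33, 1.52 and 1.45, and the shared controls of set 1 had 3.37, 2.94 and 2.77. All 6 treated animals lay below the lowest control, with log2 differences of -1.10 ± 0.24 in DHEA and -1.07 ± 0.24 in Wy. DHEA and Wy, with the higher total MAP2K1 signal, also had the lowest mean MAPK3_P-T202/Y204 signal, though Wy and CIDB both had a mean of 1.44. In CIDB total MAP2K1 differed from its controls by only 0.25 ± 0.37. Both analytes chose the cascade, so this is a description. Within groups, Pearson's r between the 2 analytes over 63 animals was 0.17 (permutation adjusted p = 0.50).

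In CIDB the 3 animals had MAPK3_P-T202/Y204 RFI of 1.66, 1.20 and 1.46 against 2.43, 2.19 and 3.60 in corn oil set 3, a log2 difference of -0.91 ± 0.24. DMN, the other GC, shared these controls and had 2.29, 2.35 and 2.01, which overlapped them (-0.27 ± 0.24). ETH had 1.72, 1.40 and 1.91 and PBO had 2.00, 2.02 and 1.31, against 2.82, 3.69 and 3.15 in set 5. The log2 difference was -0.94 ± 0.24 in ETH and -0.87 ± 0.24 in PBO, and neither group overlapped the controls. PB had 2.38, 1.85 and 1.90, below 4.15, 3.32 and 3.73 in set 6, with a difference of -0.87 ± 0.24 that was -0.46 after centring.

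These 6 differences were the calls on which the cascade was chosen. The next values outside the threshold were those of TAA at -0.69 ± 0.24 (RFI 2.05, 1.69 and 1.88), MPy at -0.60 ± 0.24 (1.83, 2.21 and 1.94) and AA at -0.58 ± 0.24 (1.72, 2.36 and 2.01). The animals of these 3 compounds also lay below all 3 controls of set 1, which they share. The share of such separations of 3 animals from 3 controls over all analytes was not counted. Here and elsewhere they are therefore a description. DES, at -0.48 ± 0.24 (2.12, 2.19 and 2.57), did not overlap set 5 either, while Mcarb, at -0.20 ± 0.24 (2.23, 2.82 and 2.90), overlapped set 1. TAA lay closer than 1 SE to PB and PBO, the smallest of the 6 called differences at -0.87.

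CFX and Nif, the NC, were on the other side of their controls. CFX had MAPK3_P-T202/Y204 RFI of 3.40, 2.99 and 5.26, Nif had 3.07, 3.51 and 4.68, and the shared set 2 had 3.21, 1.87 and 2.73. The log2 differences were 0.57 ± 0.24 and 0.54 ± 0.24, and both groups overlapped the controls. Against all 12 methylcellulose controls instead of set 2, they were 0.29 and 0.26. CPA was the remaining compound with a higher value (0.24 ± 0.24), which without replicate 3 of corn oil set 4, at 1.03 the lowest of the series, was -0.20.

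Ordered by mean MAPK3_P-T202/Y204 RFI, the groups ran from 1.41 ± 0.08 (SD, n = 3) in DHEA to 3.88 ± 1.21 in CFX, and all of the 20 pairs of neighbours in that order overlapped. Mean RFI of the control sets ran from 2.06 ± 0.91 in corn oil set 4 to 3.73 ± 0.41 in methylcellulose set 6. Between control sets with the same vehicle (7 pairs of sets), the log2 differences of MAPK3_P-T202/Y204 ran from -0.55 to 0.50, and such differences between sets are not part of the spread within groups on which the SE rests. No member was called between these sets in 49 tests, where 4 had an unadjusted p below 0.05 and 0.0904% of all analytes were called.

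**Figure D2:**
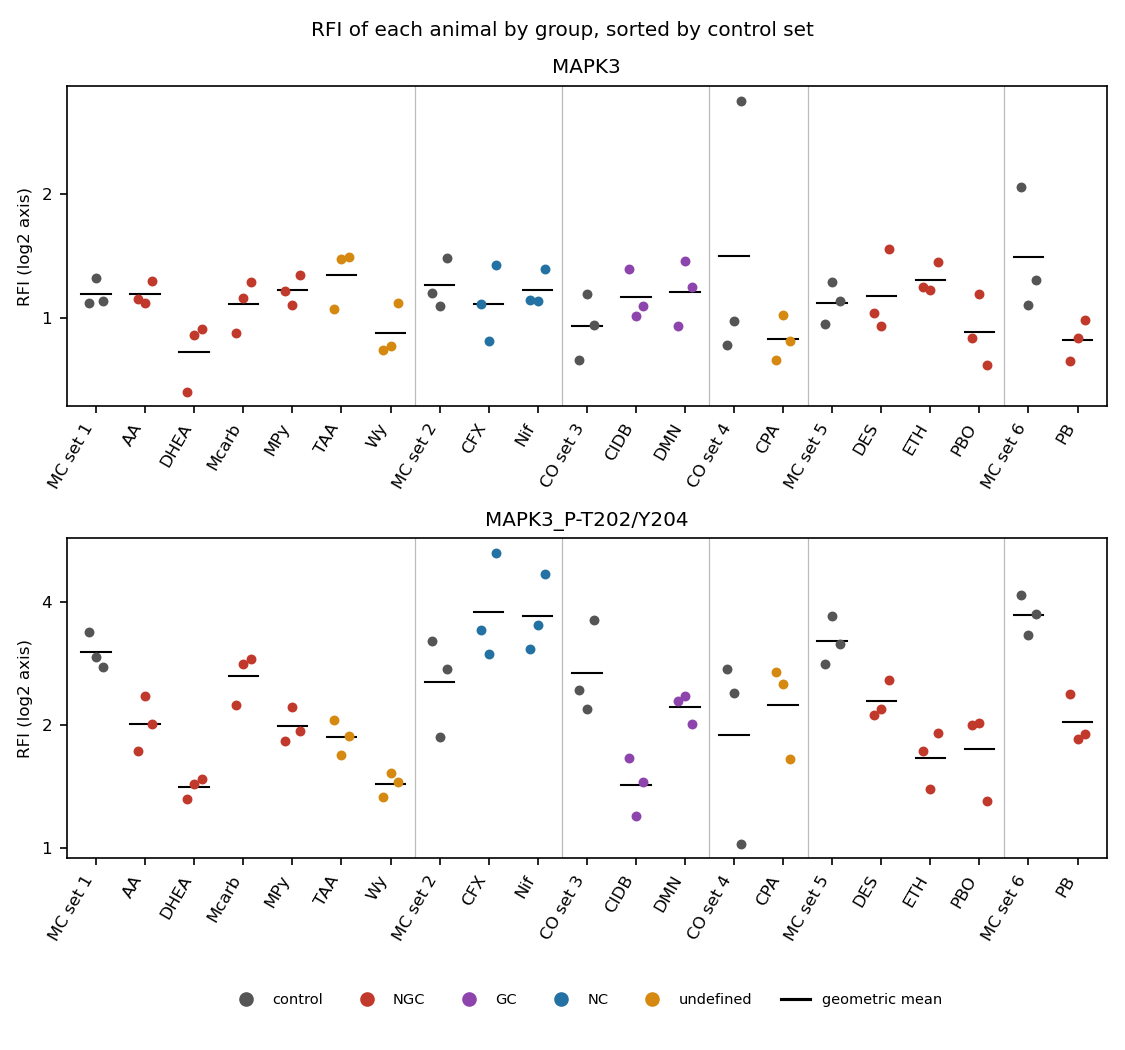
RFI of total MAPK3 (top) and of MAPK3_P-T202/Y204 (bottom) in each of the 63 animals on a log2 axis, with groups on the horizontal axis sorted by control set (MC methylcellulose, CO corn oil); points are animals coloured by class and bars are geometric means. In the bottom panel the DHEA, Wy and CIDB animals lie between 1.20 and 1.66, and replicate 3 of corn oil set 4 is at once the highest MAPK3 value, 3.38, and the lowest MAPK3_P-T202/Y204 value, 1.03.

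Over all 15 compounds 1.43% of the 2370 tests were called higher, 1.73% lower and 3.16% in either direction. The choice of the cascade used MAP2K1 and MAPK3_P-T202/Y204, so nothing is read from their 8 calls. By compound the share of analytes called was 7.59% in CIDB, 5.06% in PB and in CPA, 6.33% in PBO, 1.27% in ETH and in DMN, 2.53% in DES, 3.16% in TAA and 0% in AA, CFX, MPy, Mcarb and Nif. In the 75 tests of the other 5 members, 0 were called, and 4 had an unadjusted p below 0.05. That is 5.33% of these tests, against 10.7% of the tests over all analytes. Of these 4, 2 were the MAPK3 values of CPA and PB given above.

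RPS6KA1, the downstream kinase, did not pass the test in any compound, in its total or its phosphorylated forms. RFI of total RPS6KA1 ran from 9.75 in replicate 4 of corn oil set 3 to 29.0 in replicate 1 of methylcellulose set 6, and its log2 differences from -0.39 in PB to 0.26 in Wy. The PB value rested on that brightest animal, since it was -0.06 without it and 0.01 after centring. In no compound did the RPS6KA1 animals separate from their controls.

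RPS6KA1_P-T573, the ERK site, had a log2 difference below 0 in 12 of 15 compounds and above 0 in CFX, Nif and CPA. These were the signs of MAPK3_P-T202/Y204 in each compound as deposited. They were also those of MAP2K1_P-S217/S221 (0.08 in CFX, 0.32 in Nif and 0.18 in CPA). MAP2K1 and RPS6KA1_P-S380 were likewise below 0 in 12 compounds, though not the same ones. The share of all analytes with these signs was not counted, so nothing particular to RPS6KA1_P-T573 is read from them. After centring the signs differed in PB (0.12 for RPS6KA1_P-T573 and -0.46 for MAPK3_P-T202/Y204) and in CPA (-0.21 and 0.02), and the CPA value of MAPK3_P-T202/Y204 was also below 0 without replicate 3 of corn oil set 4, as given above. Because compounds share control sets and no single value passed the test, this is a description. The lowest value was that of ETH, with RFI of 2.25, 1.29 and 1.54 against 3.01, 2.84 and 2.03 in set 5, and the groups overlapped. The log2 difference of ETH was -0.65 ± 0.26 (limma adjusted p = 0.23), or -0.73 after centring (limma adjusted p = 0.090). In DHEA and Wy, where MAPK3_P-T202/Y204 was lowest, RPS6KA1_P-T573 differed by -0.30 ± 0.26 and -0.23 ± 0.26 (limma adjusted p = 0.65 and 0.81). The 3 DHEA animals had 2.23, 1.49 and 1.69, the Wy animals 1.93, 1.87 and 1.80, and set 1 had 2.41, 2.37 and 1.84, so that both overlapped the controls. CFX and Nif differed by 0.18 and 0.16.

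RPS6KA1_P-S380 had its lowest difference in PB, -0.73 ± 0.27 (limma adjusted p = 0.072), with RFI of 0.345, 0.403 and 0.483 below 0.790, 0.650 and 0.597 in set 6. After centring the PB difference was -0.32 (limma adjusted p = 0.42). The other 14 compounds ran from -0.35 in CIDB to 0.16 in Mcarb, and all overlapped their controls. In the series matrix, where the row of this name does not follow the RFI, 4 compounds were called lower: CIDB (-1.23), DHEA (-1.24), PBO (-1.23) and Wy (-1.46). The RFI differences of the same compounds were -0.35, -0.25, -0.09 and -0.19.

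**Figure D3:**
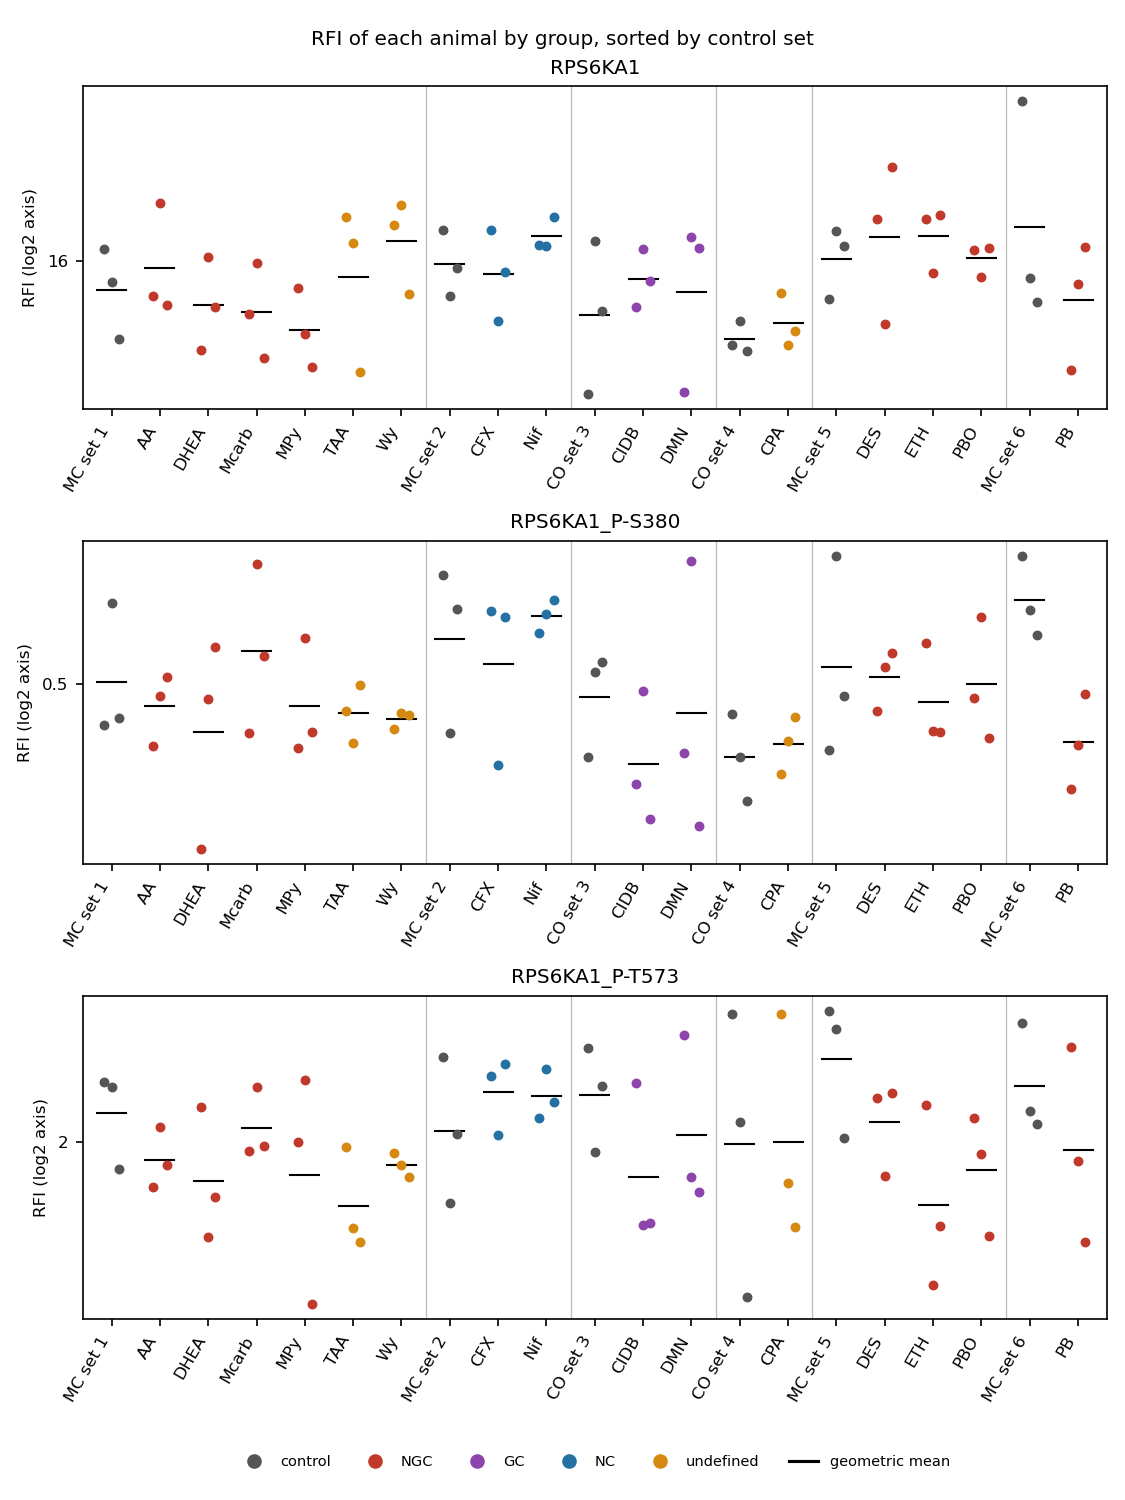
RFI of total RPS6KA1, RPS6KA1_P-S380 and RPS6KA1_P-T573 in each of the 63 animals on log2 axes, with groups on the horizontal axis sorted by control set (MC methylcellulose, CO corn oil); points are animals coloured by class and bars are geometric means. Treated and control animals overlap in every compound of every panel except PB in RPS6KA1_P-S380, and replicate 1 of methylcellulose set 6 has the highest RPS6KA1 value, 29.0.

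**Figure D4:**
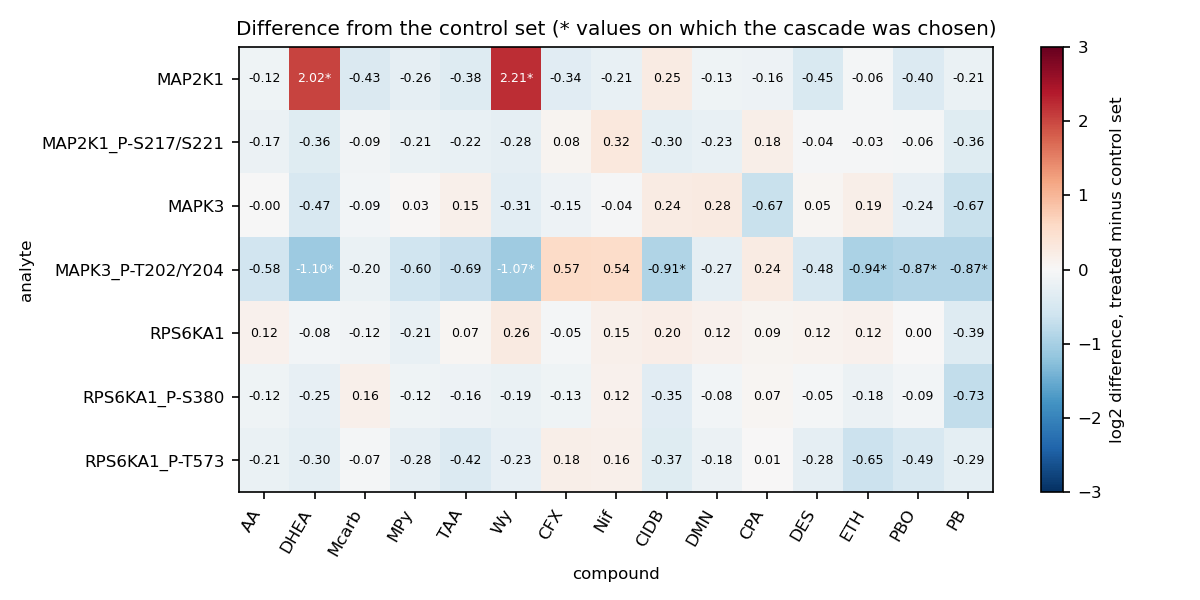
Log2 difference between each of the 15 compounds (columns) and its control set for the 7 members (rows), with an asterisk at the values on which the cascade was chosen, which are a description and no test. The marked differences are those of MAP2K1 in DHEA and Wy, at 2.02 and 2.21, and those of MAPK3_P-T202/Y204 in DHEA, Wy, CIDB, ETH, PBO and PB, from -1.10 to -0.87.

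The ratio of a phosphorylated form to its total protein in the same animal removes a scale that both share. Over the 15 compounds, 48 ratios of a form with any modified residue, not only a phosphorylated one, to its total were tested. Of these tests 6.67% were called. For the ratios of RPS6KA1_P-S380 and RPS6KA1_P-T573 to RPS6KA1, 0 of 30 tests were called by limma, the smallest adjusted p was 0.16 and 1 test, RPS6KA1_P-T573 in ETH (-0.77 ± 0.34), had an unadjusted p below 0.05. The ratios of MAP2K1 and MAPK3 hold the values that chose the cascade and are described only. The log2 ratio of MAP2K1_P-S217/S221 to MAP2K1 was -10.3, -8.61 and -8.65 in DHEA and -9.21, -9.18 and -9.52 in Wy, against -6.23, -7.74 and -6.50 in set 1. The differences in ratio were -2.38 ± 0.33 and -2.48 ± 0.33, while the phosphorylated form itself differed by -0.36 and -0.28.

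The log2 ratio of MAPK3_P-T202/Y204 to MAPK3 was 0.332, 0.244 and 0.439 in CIDB against 1.62, 0.931 and 1.90 in corn oil set 3, a difference of -1.15 ± 0.39. It was 0.531, 0.254 and 0.482 in ETH against 1.54, 1.59 and 1.52 in set 5, a difference of -1.13 ± 0.39. In replicate 3 of corn oil set 4 this ratio was -1.72 while every other animal lay above 0, and without that animal the SE of these differences was 0.22 in place of 0.39. The CPA ratio difference of 0.91 was not called as reported and was called with a replicate block. Without a block it was also called when replicate 1 (1.55) or replicate 2 (1.35) of corn oil set 4 was left out. Without replicate 3 of that set the difference was -0.15. In DHEA and Wy, where total MAPK3 differed by -0.47 and -0.31, the ratio differed by -0.63 ± 0.39 and -0.76 ± 0.39. In PB, where total MAPK3 differed by -0.67, the ratio differed by -0.21 ± 0.39.

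For the classes, each compound was taken as a unit, with its mean log2 ratio to the median of its control set. The mean of MAPK3_P-T202/Y204 was -0.68 over the 8 NGC, -0.45 over the 2 GC and 0.45 over the 2 NC. Since MAPK3_P-T202/Y204 chose the cascade, its class differences are described: NGC minus NC was -1.13 ± 0.22, all carcinogens minus NC was -1.08 ± 0.22, and NGC minus GC was -0.23 ± 0.22. Of all analytes, 1.27% were called in NGC minus NC, 0.633% in carcinogens minus NC and 0.633% in NGC minus GC. Both NC were compared with the same 3 animals of set 2, so the class and the level of that set cannot be told apart in these values. All NGC were given in methylcellulose, and both GC were given in corn oil and compared with the same 3 animals of corn oil set 3. In NGC minus GC the class, the vehicle and the level of that set therefore cannot be told apart. Against all controls of the vehicle, the differences of the NGC and of all carcinogens from the NC were -0.94 and -0.89.

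Of the other members, RPS6KA1_P-T573 differed between NGC and NC by -0.59 ± 0.15 (limma adjusted p = 0.11) and between all carcinogens and NC by -0.57 ± 0.14 (limma adjusted p = 0.095). MAP2K1_P-S217/S221 differed by -0.31 ± 0.10 (limma adjusted p = 0.25) and -0.29 ± 0.10 (limma adjusted p = 0.24). None of these passed the test. Over all 66 assignments of the carcinogen and NC labels to compounds, the differences of both between carcinogens and NC reached the smallest two-sided exact permutation p that the design allows, 0.015, with 0.078 after adjustment over the 21 comparisons. The permutation takes compounds as independent, but both NC were compared with the same animals of set 2. The class and the level of that set therefore cannot be told apart here either. Mean RPS6KA1_P-T573 RFI was 2.10 in set 2 and 2.21, 2.40 and 2.62 in methylcellulose sets 1, 6 and 5. With all controls of the vehicle, the RPS6KA1_P-T573 difference between carcinogens and NC was -0.29 (limma adjusted p = 0.38). That of MAP2K1_P-S217/S221 was -0.25 (limma adjusted p = 0.58). RPS6KA1, MAPK3 and RPS6KA1_P-S380 were called in no class comparison, and the largest of their differences was that of MAPK3 between NGC and GC (-0.35 ± 0.17, limma adjusted p = 0.60). In that comparison class, vehicle and control set cannot be told apart.

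The steps of the cascade were then correlated over animals. Deviations of log2 RFI from the group mean were used, so that differences between groups do not enter, and p-values come from 100000 permutations within groups, adjusted over the 21 pairs of members. Pearson's r between MAP2K1_P-S217/S221 and MAPK3_P-T202/Y204 was 0.64 (63 animals, permutation p = 0.00012, adjusted p = 0.00084), and Spearman's rho was 0.63 (adjusted p = 0.000525). Pearson's r between MAPK3_P-T202/Y204 and RPS6KA1_P-T573 was 0.62 (permutation p = 5e-05, adjusted p = 0.000525), and rho was 0.59. Without the 2 animals farthest from the median of the pair's first analyte, r was 0.70 for the first pair and 0.53 for the second. The animals left out differed between these pairs. Animals with more of a phosphorylated kinase than the rest of their group also tended to have more of the phosphorylated form of the next.

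Part of this was shared with the scale of the animal. Centred, r between MAPK3_P-T202/Y204 and RPS6KA1_P-T573 was 0.55 (permutation p = 0.0013, adjusted p = 0.027), while r between MAP2K1_P-S217/S221 and MAPK3_P-T202/Y204 was 0.35 and no longer passed (permutation p = 0.11, adjusted p = 0.25). MAP2K1_P-S217/S221 with RPS6KA1_P-T573 passed both ways, with r of 0.53 before and 0.41 after centring (permutation adjusted p = 0.0015 and 0.048). So did total MAP2K1 with MAP2K1_P-S217/S221, with r of 0.48 and 0.44 (permutation adjusted p = 0.0076 and 0.041). When the dimmest and the brightest animal were also left out, an alternative added after the data were seen, none of the 21 centred pairs passed by Pearson's r and 3 passed by Spearman's rho. The 3 were MAPK3_P-T202/Y204 with RPS6KA1_P-T573 (rho = 0.44), total MAP2K1 with MAP2K1_P-S217/S221 (rho = 0.46) and total MAPK3 with RPS6KA1_P-T573 (rho = -0.45), each with a permutation adjusted p of 0.044. There, Pearson's r was 0.48 for MAPK3_P-T202/Y204 with RPS6KA1_P-T573 (permutation adjusted p = 0.085), 0.43 for MAP2K1 with MAP2K1_P-S217/S221 (0.085), 0.35 for MAP2K1_P-S217/S221 with RPS6KA1_P-T573 (0.11) and 0.24 for MAP2K1_P-S217/S221 with MAPK3_P-T202/Y204 (0.51). As deposited and without these animals, 10 pairs passed, with r of 0.61 for MAP2K1_P-S217/S221 with MAPK3_P-T202/Y204 and 0.52 for MAPK3_P-T202/Y204 with RPS6KA1_P-T573 (permutation adjusted p = 0.0034 for both).

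Over the 18 control animals alone, r between MAPK3_P-T202/Y204 and RPS6KA1_P-T573 was 0.79, and over the 45 treated animals it was 0.52 (permutation adjusted p = 0.045 and 0.028). For MAP2K1_P-S217/S221 with MAPK3_P-T202/Y204 the values were 0.75 and 0.55 (permutation adjusted p = 0.033 and 0.044). By Spearman's rho both relations passed in the treated animals (0.56 and 0.58, permutation adjusted p = 0.013 for both) and neither passed in the controls (0.59 and 0.73, permutation adjusted p = 0.13 and 0.057). Without replicate 3 of corn oil set 4, an alternative added after the data were seen, neither passed in the remaining 17 controls, with r of 0.57 and 0.74 (permutation adjusted p = 0.14 and 0.053). Whether r differed between treated and control animals was not tested.

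RPS6KA1_P-S380 correlated before centring with MAP2K1_P-S217/S221 (r = 0.54), MAPK3_P-T202/Y204 (r = 0.40) and total RPS6KA1 (r = 0.37), and after centring these were 0.05, 0.06 and 0.10 (permutation adjusted p of 0.85, 0.83 and 0.67). Its relation with RPS6KA1_P-T573, the other site on the same protein, was 0.14 before and -0.14 after centring. In all, 8 of 21 pairs passed the test as deposited and 5 after centring. Pairs of other analytes were not correlated over animals, so no share over all analytes stands beside these counts. Nothing particular to the cascade is read from the counts.

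The correlation of total MAPK3 with MAPK3_P-T202/Y204 did not pass the test over all animals (r = -0.17, permutation adjusted p = 0.74). That value rested on 2 animals of corn oil set 4, replicates 1 and 3, without which r was 0.40 (permutation adjusted p = 0.020). Centred, total MAPK3 correlated with RPS6KA1_P-T573 at -0.49 (permutation adjusted p = 0.033), against -0.35 before centring and -0.10 before centring without these 2 animals. Centred without the dimmest and the brightest animal it was -0.43 (permutation adjusted p = 0.085).

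**Figure D5:**
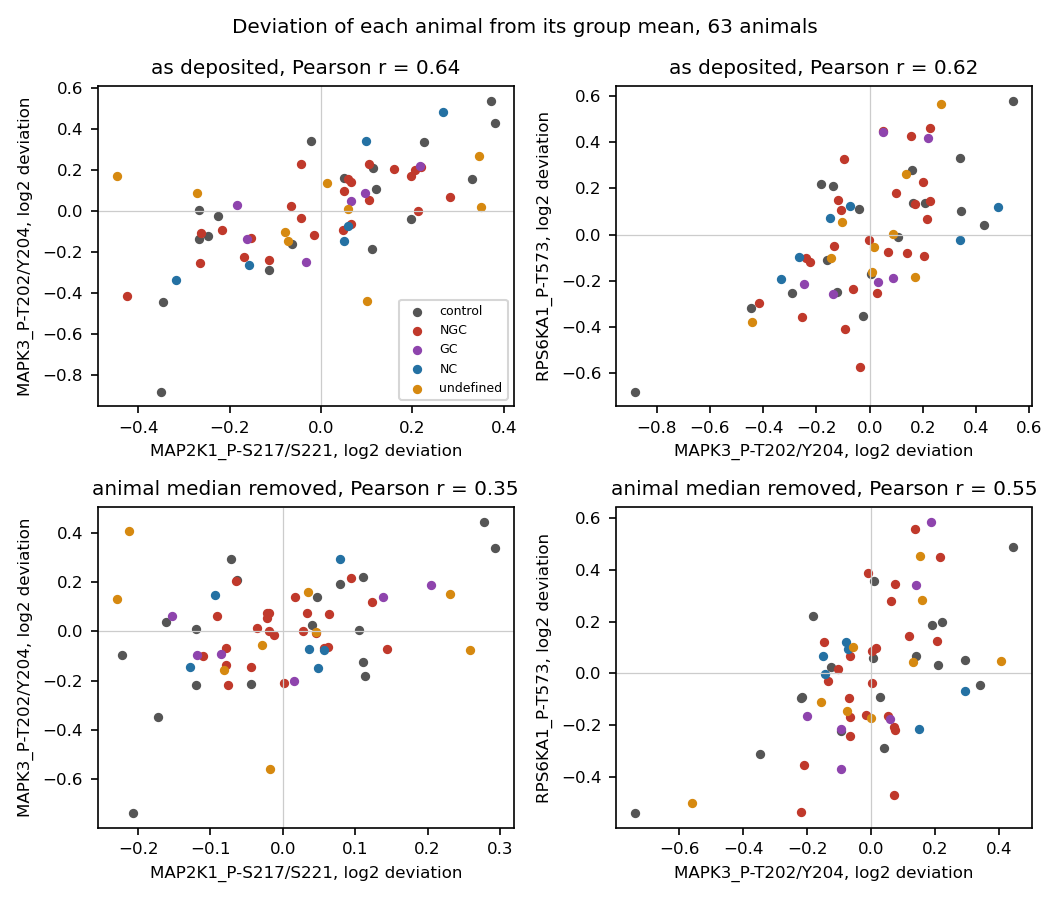
Deviation of log2 RFI of each of the 63 animals from its group mean, MAPK3_P-T202/Y204 against MAP2K1_P-S217/S221 (left) and RPS6KA1_P-T573 against MAPK3_P-T202/Y204 (right), as deposited (top) and with each animal's median removed (bottom); points are animals coloured by class. Pearson's r falls from 0.64 to 0.35 on the left and from 0.62 to 0.55 on the right.

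Over the 21 group means, after centring, the analytes most like each member were ranked by Pearson's r as a description. For MAPK3_P-T202/Y204 these were MAPK8_P-T183/Y185, the active form of the stress kinase JNK1 (r = 0.87), GSK3B_P-S9, the inhibited form of a glycogen synthase kinase (r = 0.80), and MAP2K1_P-S217/S221 (r = 0.73). MAPK8_P-T183/Y185 differed from set 1 by -0.73 ± 0.23 in DHEA and -0.74 ± 0.23 in Wy. GSK3B_P-S9 differed by -0.83 ± 0.21 and -0.86 ± 0.21 in the same compounds. Both analytes were picked for their likeness over these same group means, so their differences are a description and no test. For total MAP2K1 the most alike were HDAC2, a histone deacetylase (r = 0.87), CYP3A5, a drug-metabolising cytochrome P450 (r = 0.81), and PTK2, the focal adhesion kinase (r = 0.77). In DHEA and Wy, HDAC2 differed from set 1 by 0.08 and 0.38, CYP3A5 by 0.48 and 1.52, and PTK2 by -0.03 and 0.14. These values are a description as well. For MAP2K1_P-S217/S221 they were MAPK8_P-T183/Y185 (0.75), MAPK3_P-T202/Y204 (0.73) and GSK3B_P-S9 (0.71).

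Total MAPK3 was most like MAPK14, the p38 kinase (0.83), CCND1, cyclin D1 (0.72), and CTNNB1, beta-catenin (0.67). RPS6KA1_P-S380 was most like ELK1, an ERK-regulated transcription factor (0.77), MAPK3_P-T202/Y204 (0.73) and PRKAA1, a catalytic subunit of AMPK (0.67). RPS6KA1_P-T573 was most like RPS6KB1, the ribosomal S6 kinase of the mTOR pathway (0.74), MAPK3_P-T202/Y204 (0.70) and MAPK8_P-T183/Y185 (0.64). Total RPS6KA1 had no close companion, with JAK1 (0.46), SMAD2 (0.42) and PTPN11 (0.39) leading.

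From a list of 39 other symbols of the pathway, from receptors to transcription factors, 17 were measured by 26 analytes. Of their 390 tests, 3 were called higher and 6 lower, which is 2.31% against 3.16% over all analytes, and their median log2 difference was -0.03, the same as over all analytes. RPS6_P-S235/S236, sites on ribosomal protein S6 that RSK and S6 kinases phosphorylate, accounted for 4 of the falls: -2.87 ± 0.59 in DHEA, -2.65 ± 0.59 in DES, -2.00 ± 0.59 in Wy and -1.87 ± 0.59 in PBO (limma adjusted p = 0.0012, 0.0041, 0.023 and 0.047). Of these, DHEA, Wy and PBO were among the 6 compounds on which the cascade was chosen and DES was not, while RPS6_P-S235/S236 was not called in CIDB, ETH and PB, the other 3 of the 6.

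Upstream, the receptor MET was lower in TAA (-1.20 ± 0.35, limma adjusted p = 0.043). MAP2K2 (MEK2), the relative of MAP2K1, was higher in PBO (0.51 ± 0.13, limma adjusted p = 0.0067). Among the transcription factors, JUN was higher in CIDB (1.54 ± 0.23, limma adjusted p = 1.5e-06) and MYC lower in PB (-0.68 ± 0.21, limma adjusted p = 0.048). After centring, MET in TAA and MYC in PB no longer passed the test (-0.94 and -0.27). The other 20 measured analytes of the list, among them HRAS, EGFR and its phosphorylated forms, were called in no compound.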

How the data were processed

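The authors printed liver lysates of 63 rats on reverse-phase protein arrays, corrected spots for background around them, scaled signals across the array and took weighted means of replicate spots. The deposited values are relative fluorescence intensities, a linear intensity with no unit, of 158 analytes per animal. The authors also deposited a matrix of log2 ratios to control medians with imputed values, which was used as an alternative and as a check of names. Its scale, centring and direction were taken from the study's methods. Columns left unused numbered 0. Sequencing depth does not apply here, and precision is limited by having 3 animals per group. Replicates are separate animals.

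Members and lists were chosen with earlier results of these data known. Intensities at or below 0 were set to missing, the rest were log2 transformed, and 21 group means over all 63 animals were fitted by lmFit and eBayes of limma 3.58.1 in R 4.3.3. Each compound was compared with the control set of its label. Two-sided p-values were adjusted by the Benjamini-Hochberg method over all analytes of a comparison, and a call is an adjusted p below 0.05. Modified over total ratios and control sets of the same vehicle were fitted in the same way, and classes over compounds. Correlations were computed in Python 3.11.15 (numpy 2.4.6). The scripts were tested on simulated data. Analytes were named by rule: every member, every pathway analyte called in any compound (1 of them is counted but not reported here), and the 3 analytes of other symbols most like each member. Other pathway analytes named as not called were picked after their values were seen.

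PB with set 6 and CPA with set 4 share label numbers 1 to 3. The correlation of same-numbered animals' deviations over analytes was 0.03, 0.01 and 0.07 for PB, and 0.31, 0.22 and 0.16 for CPA. The labels do not state a pairing, and the fits as reported used none, in CPA as elsewhere. The replicate block, an alternative, was fitted for both PB with set 6 and CPA with set 4. Alternatives were centring each animal on its median, all controls of a vehicle, the matrix, the 6 animals of a comparison alone, a trended robust prior, leaving out the dimmest analytes (below the 0.1 quantile of median intensity) or each animal in turn, and a replicate block. Leaving out the dimmest and the brightest animal together, and the dimmest from the control animals, was added after the data were seen.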

Additional observations from a re-analysis of the deposited data

How the results depend on the processing

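The number of member calls over 15 compounds, 8 as reported, was 8 or 9 under the other settings, the added ones included (9 without the dimmest and the brightest animal, 8 when also centred), and 6 to 10 when an animal was left out. It was lowest without replicate 8 of methylcellulose set 5 and highest without replicate 3 of corn oil set 4. With the replicate block it was 9. The 8 are the values on which the cascade was chosen, so what follows on them is a description and supports nothing. On the log2 scale MAP2K1 ran from 1.56 to 2.57 in DHEA and 1.92 to 2.76 in Wy, and the 6 MAPK3_P-T202/Y204 differences kept their sign. MAPK3_P-T202/Y204 was added in TAA with the replicate block, with all controls of the vehicle (-0.73), with the 6 animals alone, and without the dimmest animal alone or together with the brightest, in MPy with all controls of the vehicle (-0.64), and in DES when centred without these animals. Total MAPK3 was added in PB without the dimmest animal, and in CPA it was added after centring, in the matrix (-0.85, where RPS6KA1_P-S380 was also added in 4 compounds) and without corn oil set 4 replicates 1 (-1.03) or 2 (-0.93). The animals whose omission ended a call were CIDB replicate 2 (-0.78), corn oil set 3 replicate 6 (-0.69), ETH replicates 2 (-0.82) and 3 (-1.04), methylcellulose set 5 replicates 8 (-0.84 in ETH, -0.77 in PBO) and 9 (-0.95 in ETH), PB replicates 2 (-0.81) and 3 (-0.82), methylcellulose set 6 replicate 1 (-0.79) and PBO replicate 3 (-0.67). The matrix ended those of DHEA (-0.87), ETH (-0.69), PB (-0.52) and PBO (-0.65), and PB was also lost after centring (-0.46), with all controls of the vehicle (-0.61), with the 6 animals alone (-0.87) and centred without the dimmest and the brightest animal (-0.57). Calls of modified over total ratios numbered 3 as reported, 5 with the replicate block, 8 in the matrix, 7 without the dimmest and the brightest animal, and 2 to 6 when an animal was left out, the highest without replicate 3 of corn oil set 4. The ratio of MAPK3_P-T202/Y204 in CIDB was lost with all controls of the vehicle (-0.61), with the 6 animals alone, without CIDB replicate 2 (-1.10) and without corn oil set 3 replicate 6 (-0.94), and the ratio call count was 4 with the 6 animals alone. The 2 class calls of MAPK3_P-T202/Y204 became 0 after centring, with all controls of the vehicle, in the matrix and by exact permutation of class labels. Member calls between control sets were 0 in every setting run. Correlated pairs numbered 8 as reported, 5 after centring, 0 when the dimmest and the brightest animal were also left out, 0 in the controls without the dimmest animal, and 6 to 10 by Pearson's r in the other settings. By Spearman's rho the numbers were 9 over all animals, 6 and 3 in the first pair of these settings, 0 in the third, 1 in the 18 controls, 5 in the 45 treated animals and 8 to 10 in the rest. The relation of MAP2K1_P-S217/S221 with RPS6KA1 turned from 0.18 to -0.37 after centring, and that of MAPK3 with MAPK3_P-T202/Y204 from -0.17 to 0.45 in the 45 treated animals, to 0.40 without the 2 farthest animals and to 0.38 without the dimmest and the brightest animal. Calls of other pathway analytes were 9 as reported and 7 to 11 elsewhere. Except where a setting's own construction shows it, the cause of these changes was not tested.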
